A study of Mus musculus with 4 samples.

Results

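The genes described here encode cytoskeletal and nuclear filament proteins of the mouse heart: desmin (Des), synemin (Synm), vimentin (Vim) and nestin (Nes) of the cytoplasmic intermediate filaments, lamin A/C (Lmna), lamin B1 (Lmnb1) and lamin B2 (Lmnb2) of the nuclear lamina, and the microtubule-associated protein Map1b. They were taken by symbol from a table of raw counts per gene, in which all 8 of these symbols matched 1 row each among 54752 gene identifiers. RNA of whole hearts from mice at postnatal day 14 had been sequenced in 4 libraries, 2 labelled Carm1 mutant and 2 labelled wild type. Carm1 encodes an arginine methyltransferase that acts on histone H3 and on transcriptional coactivators. The sources used here do not name the allele, any Cre driver or the number of animals behind a library, and the series text calls the hearts neonatal. Whether each library stands for its own animal is not labelled either, so every p-value below rests on the scatter among 4 libraries, which may be technical.

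Intermediate filaments are ropes of coiled-coil proteins that carry tension in the cell. In heart muscle cells desmin forms a lattice that ties the Z-discs to each other, to the intercalated discs, to the nucleus and to mitochondria, and synemin joins that lattice as a large partner subunit. Vimentin is the filament protein of fibroblasts, endothelial cells and other mesenchymal cells, and nestin, which needs a partner such as vimentin or desmin to form filaments, is known from progenitor cells, growing vessels and developing muscle. The lamins line the inner nuclear membrane. The A-type lamins of Lmna stiffen the nucleus and increase in mechanically loaded, differentiated tissue, while the B-type lamins of Lmnb1 and Lmnb2 stay bound to the membrane through a farnesyl group. Map1b binds and stabilises microtubules and is best known from growing axons.

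Library totals were 22217442 and 11677604 counts in the mutant libraries and 21719161 and 20778420 counts in the wild-type libraries. Carm1 had 897 and 432 counts in the mutant libraries, against 803 and 1025 counts in the wild-type libraries. It was not called (log2 fold change −0.54, SE 0.19, edgeR FDR 0.114), and counts over the whole gene do not show an allele. Both mutant libraries had many Xist counts (8116 and 3921) and almost none from 4 Y-linked genes (7 and 0), while both wild-type libraries had 12 and 15 Xist counts and 1769 and 2236 Y-linked counts. The sex of the animals and the genotype label therefore cannot be told apart in any difference below. The wild-type pair also differed in how counts followed transcript length: Spearman's rho, taken over genes between transcript length and a library's difference from the 4-library mean, was 0.20 and −0.0099 in the mutant libraries, and −0.34 and 0.26 in wild type replicates 1 and 2. These values are a description across genes, which are not independent replicates. As a check of the tissue, 8 heart muscle cell markers summed to between 40408 and 77997 CPM (counts scaled to library size, here by TMM, the trimmed mean of M-values) in every library, whereas 4 markers of skeletal muscle summed to at most 0.97 CPM.

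In the mutant hearts 2 of the 8 genes rose, Nes and Map1b, and none of the 8 fell by edgeR (0 also by DESeq2, and 0 with a negative difference at an unadjusted p under 0.05). Calls were made with the edgeR quasi-likelihood test at a false discovery rate (FDR) of 0.05 over 15283 tested genes, all 8 genes among them. Of all tested genes 2.79% were called higher and 4.58% lower; either direction together made 7.37%. In 6 of the 8 genes both mutant libraries lay above both wild-type libraries, an order that 30.3% of all tested genes had, and in 1 gene, Des, both lay below, an order that 28.7% had. The median log2 fold change of the 8 genes was 0.55, against 0.02 for all tested genes. With each library left out in turn, 2, 2, 3 and 4 of the genes were called higher without mutant replicate 1, mutant replicate 2, wild type replicate 1 and wild type replicate 2, and Des was called lower without wild type replicate 2.

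**Figure D1:**
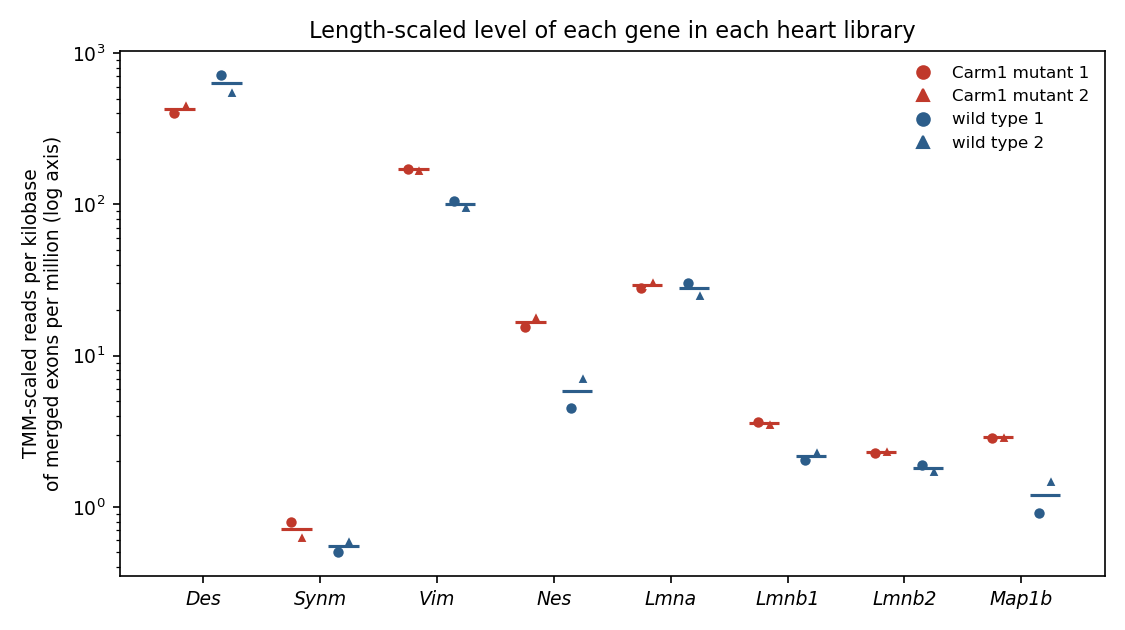
Level of each of the 8 genes in every library, in TMM-scaled CPM per kilobase of merged exons (log axis), with mutant libraries in red to the left of wild-type libraries in blue; horizontal bars are means of 2 libraries. Des was the most abundant of them in every library, at 402 and 453 in the mutant libraries and 720 and 555 in the wild-type libraries. Nes and Map1b show the widest gaps between the groups.

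Levels of different genes can be compared per kilobase of merged exons, a scale called RPKM here. In the mutant hearts the order from high to low was Des (427 ± 36 RPKM, SD, n = 2), Vim (170.0 ± 0.4), Lmna (29.3 ± 2.1), Nes (16.7 ± 1.9), Lmnb1 (3.57 ± 0.09), Map1b (2.88 ± 0.03), Lmnb2 (2.30 ± 0.05) and Synm (0.715 ± 0.119). In the wild-type hearts the order was Des (637 ± 117 RPKM, SD, n = 2), Vim (101 ± 6), Lmna (27.8 ± 3.6), Nes (5.82 ± 1.88), Lmnb1 (2.16 ± 0.19), Lmnb2 (1.81 ± 0.13), Map1b (1.196 ± 0.410) and Synm (0.552 ± 0.067). Map1b thus stood above Lmnb2 in both mutant libraries and below it in both wild-type libraries, and no neighbours in either order had overlapping values. The rank of the lower genes depends on the length used: per kilobase of the longest annotated transcript, Map1b was at 3.86 and Lmnb1 at 3.72 RPKM in the mutant hearts, which turns their order round.

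Desmin mRNA was lower in each mutant library than in either wild-type library, but the difference was not called. Des (ENSMUSG00000026208, GRCm38 chromosome 1, 75360329 to 75368579, plus strand) had 1508 and 1701 CPM in the mutant libraries, against 2702 and 2084 CPM in the wild-type libraries. The groups did not overlap, and the wild-type libraries lay farther from each other than the mutant ones did. The log2 fold change was −0.58 (SE 0.25, 95% interval −1.16 to 0.01, edgeR FDR 0.185). It was −0.17 with scaling by library totals alone, where the median of all tested genes was 0.41, and −0.38 without wild type replicate 1. An antisense gene, Gm15179, shares 220 exonic bases with Des but had at most 14 counts in any library. The labels do not say whether the kit kept strand.

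Synemin mRNA was the scarcest of the 8. Synm (ENSMUSG00000030554, chromosome 7, 67730160 to 67759742, minus strand) had 6.34 and 5.01 CPM in the mutant libraries, against 4.003 and 4.75 CPM in the wild-type libraries, from 159, 68, 70 and 93 counts in that order. The mutant values lay just above the wild-type ones, by less than the spread within the mutant pair. Its log2 fold change of 0.38 (SE 0.27, 95% interval −0.23 to 0.996, edgeR FDR 0.387) was not called. The opposite-strand gene Ttc23 shares 84 exonic bases with it, and reads there cannot be assigned to a strand from the sources used here.

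Vimentin mRNA was higher in both mutant libraries with hardly any spread within the pair, just short of the threshold. Vim (ENSMUSG00000026728, chromosome 2, 13573927 to 13582826, plus strand) had 808 and 805 CPM in the mutant libraries, against 499 and 456 CPM in the wild-type libraries. The groups were far apart relative to the spread within each pair. The log2 fold change was 0.76 (SE 0.21, 95% interval 0.26 to 1.25), with an edgeR FDR of 0.0709. Vim passed the threshold when wild type replicate 1 (FDR 0.0111) or 2 (FDR 0.00991) was left out, and in 4 other settings. It was not called without mutant replicate 1 (FDR 0.570) or mutant replicate 2 (FDR 0.519).

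Nestin mRNA had the largest difference of the 8 genes and rose in the mutant hearts. Nes (ENSMUSG00000004891, chromosome 3, 87971078 to 87980451, plus strand) had 98.5 and 116 CPM in the mutant libraries, against 28.8 and 45.9 CPM in the wild-type libraries, from 2469, 1577, 504 and 899 counts in that order. The lower mutant library held more than either wild-type library, and wild type replicate 1 was the lowest of the 4. The fitted fold was 2.87 (log2 fold change 1.52, SE 0.26, 95% interval 0.92 to 2.12, edgeR FDR 0.0203). Nes was called in all 15 alternative settings, with log2 fold changes from 1.22, without wild type replicate 1, to 1.89, with library totals alone.

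Map1b mRNA also rose, with almost equal values in the mutant pair. Map1b (ENSMUSG00000052727, chromosome 13, 99421446 to 99516540, minus strand) had 45.2 and 45.9 CPM in the mutant libraries, against 14.4 and 23.5 CPM in the wild-type libraries. As for Nes, wild type replicate 1 was the lowest of the 4 libraries. The fitted fold was 2.40 (log2 fold change 1.26, SE 0.25, 95% interval 0.68 to 1.85, edgeR FDR 0.0286), and the gene was called in all 15 alternative settings, with log2 fold changes between 0.95 (wild type replicate 1 left out) and 1.64 (wild type replicate 2 left out). Nes and Map1b have long transcripts, of up to 6126 and 11808 bases, and wild type replicate 1 was the library in which long transcripts were low. With offsets for transcript length and GC content fitted to each library, their log2 fold changes were 1.36 (edgeR FDR 0.00191) and 1.04 (edgeR FDR 0.00326).

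**Figure D2:**
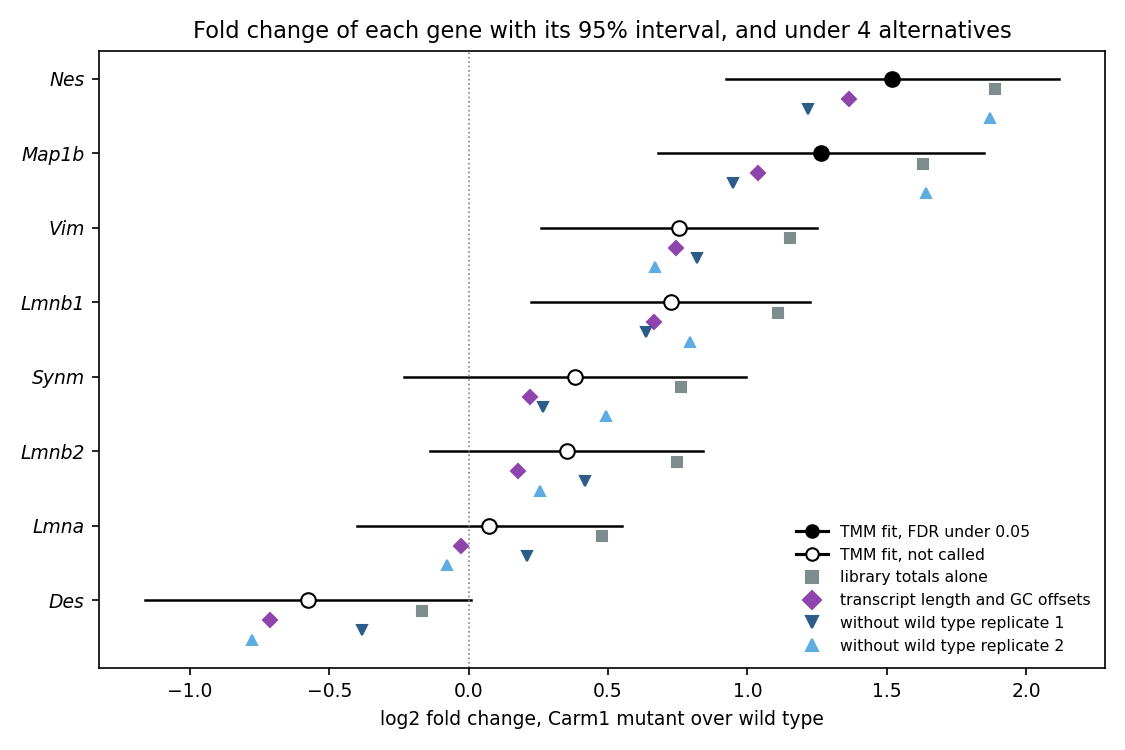
Log2 fold change of each gene, mutant over wild type, with its 95% interval (circle and line; filled where the FDR was under 0.05), and the estimate under 4 alternatives drawn below each line. Nes (1.52) and Map1b (1.26) stay right of 0 under each of the 4 alternatives, Lmna (0.07) falls on both sides of 0, and Des (−0.58) stays left of 0.

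The sequence just before the RefSeq start of Nes and Map1b, the genes that rose, and of Des, the gene with the opposite sign, is shown to let the promoters be compared (RefSeq, GRCm38.p6, 250 bases upstream of the start, 5′ to 3′ on the strand of the gene). The gene coordinates given above are those of GENCODE, which places the starts elsewhere: the RefSeq start lies 15 bases downstream of it for Nes, 62 bases upstream for Map1b and 37 bases upstream for Des. Capitals mark matches on either strand to TATAAA or GGGCGG. Searches for CCAAT, the CArG box bound by serum response factor and the MEF2 box, also on both strands, found no match in these windows. Of the 8 genes 7 had an entry in the table used.
Nes, chr3:87970843-87971092, plus strand: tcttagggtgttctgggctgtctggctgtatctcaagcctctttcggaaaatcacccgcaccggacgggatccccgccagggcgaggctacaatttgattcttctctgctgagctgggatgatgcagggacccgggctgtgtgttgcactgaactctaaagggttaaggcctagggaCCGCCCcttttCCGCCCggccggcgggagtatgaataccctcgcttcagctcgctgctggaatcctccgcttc
Map1b, chr13:99516603-99516852, minus strand: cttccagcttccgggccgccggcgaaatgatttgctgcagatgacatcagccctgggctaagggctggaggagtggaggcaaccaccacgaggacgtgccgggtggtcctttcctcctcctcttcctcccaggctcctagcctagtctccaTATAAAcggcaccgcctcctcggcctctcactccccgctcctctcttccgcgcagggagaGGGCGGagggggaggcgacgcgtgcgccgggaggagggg
Des, chr1:75360042-75360291, plus strand: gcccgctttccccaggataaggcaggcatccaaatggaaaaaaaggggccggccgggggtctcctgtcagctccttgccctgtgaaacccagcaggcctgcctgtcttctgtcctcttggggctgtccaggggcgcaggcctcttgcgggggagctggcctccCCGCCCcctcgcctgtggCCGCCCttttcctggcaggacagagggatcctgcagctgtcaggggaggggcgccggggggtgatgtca
Nes and Des each had 2 GGGCGG matches and Map1b had 1, a motif found in 32.7% of 32851 windows of the same length in the table. Map1b alone of the 3 had a TATAAA match, from 99 to 94 bases before the start, which 12.4% of the windows hold. The other motifs were found in 33.8% (CCAAT), 1.47% (CArG box) and 2.92% (MEF2 box) of the windows. GC content was 58.8% for Nes, 66.4% for Map1b and 67.2% for Des, against a median of 52.4% over all windows. The windows thus share a match to GGGCGG and a GC content above the median, whichever sign the gene's difference had.

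None of the 3 lamin genes was called by edgeR, and their fold changes were not tested against each other. Lmna (ENSMUSG00000028063, chromosome 3, 88480147 to 88509956, minus strand) had 162 and 180 CPM in the mutant libraries, against 178 and 148 CPM in the wild-type libraries. These groups overlapped, and the log2 fold change was 0.07 (SE 0.21, 95% interval −0.40 to 0.55, edgeR FDR 0.844), with a sign that changed between settings. Lmnb1 (ENSMUSG00000024590, chromosome 18) had 10.8 and 10.4 CPM in the mutant libraries, against 6.01 and 6.79 CPM in the wild-type libraries. Its groups were well apart, but at a log2 fold change of 0.72 (SE 0.22, 95% interval 0.23 to 1.22) the edgeR FDR was 0.0798. Lmnb1 was called without wild type replicate 2 (FDR 0.0273), with library totals alone and with the length and GC offsets. Lmnb2 (ENSMUSG00000062075, chromosome 10, 80901203 to 80918245, minus strand) had 9.73 and 10.01 CPM in the mutant libraries, against 8.12 and 7.35 CPM in the wild-type libraries. Its log2 fold change of 0.35 (SE 0.21, 95% interval −0.14 to 0.84, edgeR FDR 0.318) was not called.

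Shares within a library do not depend on how libraries are scaled to each other. Per kilobase of merged exons, the B-type genes Lmnb1 and Lmnb2 together made up 17.5% and 15.9% of lamin RNA in the mutant libraries, against 11.4% and 13.7% in the wild-type libraries. Vim made up 29.8% and 27.2% of Vim plus Des in the mutant libraries, against 12.8% and 14.8% in the wild-type libraries. Nes made up 3.68% and 3.84% of Nes plus Des in the mutant libraries, against 0.620% and 1.27% in the wild-type libraries. In all 3 shares both mutant libraries lay above both wild-type libraries. The differences of means were 4.17, 14.8 and 2.81 percentage points in that order. An exact two-sided permutation test gave p = 0.333 for each share, which is the smallest that 2 against 2 libraries can give.

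**Figure D3:**
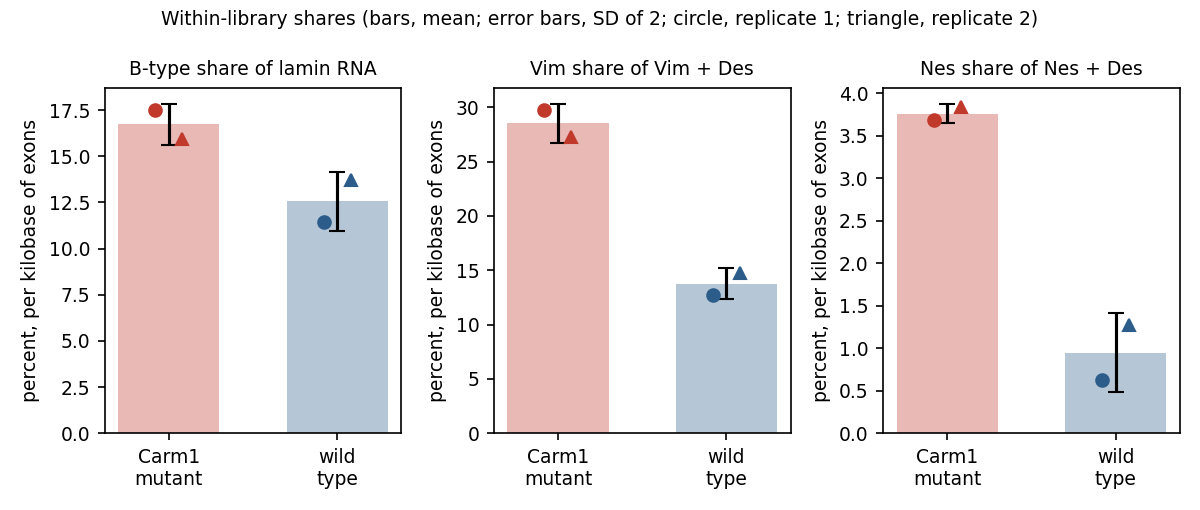
Share of B-type lamin RNA among all lamin RNA, of Vim in Vim plus Des, and of Nes in Nes plus Des, as percentages per kilobase of merged exons, with mutant libraries left of wild-type libraries; bars are means and error bars the SD of 2. Mean shares were 16.7 ± 1.1%, 28.5 ± 1.8% and 3.76 ± 0.11% in the mutant hearts, against 12.6 ± 1.6%, 13.8 ± 1.4% and 0.947 ± 0.462% in the wild-type hearts.

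Other intermediate filament genes moved in both directions. Of 18 listed, 10 passed the filter on low counts, which Gfap and the neurofilament genes did not, and Krt5 had no count in any library. Krt18, a keratin of simple epithelia, rose at a low level: it had 17.4 and 25.4 CPM in the mutant libraries, against 3.89 and 3.42 CPM in the wild-type libraries (log2 fold change 2.54, SE 0.26, edgeR FDR 0.00550). Its usual partner Krt8, chosen after its values were seen, had a log2 fold change of 1.11 (edgeR FDR 0.139). Sync, which encodes syncoilin, a muscle filament protein that binds alpha-dystrobrevin, fell to 2.51 and 3.53 CPM in the mutant libraries, against 10.6 and 9.65 CPM in the wild-type libraries (log2 fold change −1.77, edgeR FDR 0.0148). Krt222 also fell (−0.97, edgeR FDR 0.0299). The 7 others tested did not pass, and the median over the 10 was 0.05, against 0.02 for all tested genes. Over all tested genes 2.79% were called higher and 4.58% lower. Without mutant replicate 1 and without mutant replicate 2 in turn Krt222 was not called (FDR 0.352 and 0.139), nor was it with library totals (FDR 0.120), while Krt18 and Sync kept their calls without any 1 library.

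Among 14 linkers and chaperones of the desmin network, most values lay below wild type. Only 1 of the 14 was called lower and none higher, beside 4.58% and 2.79% of all tested genes. In 10 of the 14 both mutant libraries lay below both wild-type libraries, beside 28.7% of all tested genes, and in none above. The median log2 fold change was −0.41, against 0.02 for all tested genes. Dtna, which encodes the alpha-dystrobrevin that syncoilin binds, fell to 35.4 and 30.5 CPM in the mutant libraries, against 73.1 and 72.3 CPM in the wild-type libraries (log2 fold change −1.14, SE 0.19, edgeR FDR 0.0195). The other 13, among them the plakin linkers Plec and Dsp and the small heat shock protein Cryab, were not called. Bag3 (log2 fold change −0.73, edgeR FDR 0.0660) and Mtm1 (−0.83, edgeR FDR 0.0736) were near the threshold. An unadjusted edgeR p under 0.05 was reached by 6 of the 14, all lower, beside 27.8% of all tested genes in either direction. Dtna was not called with library totals alone (FDR 0.0556). In that scaling the median of the list was −0.03, below the 0.41 of all tested genes. The count of lower calls was 0 without mutant replicate 1, 0 without mutant replicate 2, 6 without wild type replicate 1 and 6 without wild type replicate 2.

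The partners of the lamins at the nuclear envelope showed no call in either direction by edgeR at the FDR of 0.05. Over all tested genes 7.37% were called in either direction, so a list of 16 or 5 genes may well hold none. All 16 genes of that list were tested, their log2 fold changes ran from −0.65 to 0.88, and their median was 0.01. Sun2, which links the lamina to the cytoskeleton across the envelope, had 78.9 and 73.2 CPM in the mutant libraries, against 97.7 and 115 CPM in the wild-type libraries (log2 fold change −0.48, edgeR FDR 0.155), and was called without wild type replicate 1 (FDR 0.0304) and with the offsets (FDR 0.0257). Banf1, a small protein that bridges DNA to the lamina, had 59.2 and 73.5 CPM in the mutant libraries, inside the wild-type values of 85.4 and 46.9 CPM. An unadjusted p under 0.05 was reached by 5 genes of the list, beside 27.8% of all tested genes, and the DESeq2 Wald test called 1 lower. Without wild type replicate 1 the list had 0 higher and 3 lower calls, without wild type replicate 2 it had 3 higher and 3 lower, and with the length and GC offsets 1 higher and 4 lower. Of the 5 enzymes that process lamin tails none was called by edgeR, 0 had an unadjusted p under 0.05, DESeq2 called 0, and the median was −0.19. Fnta, a farnesyltransferase subunit, had a log2 fold change of −0.26 (edgeR FDR 0.521), and Icmt, which methylates the farnesylated end, one of −0.15 (edgeR FDR 0.613).

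Microtubule-associated genes held 3 further calls higher and none lower by edgeR. In 8 of them both mutant libraries lay above both wild-type libraries, beside 30.3% of all tested genes, and in 2 below, beside 28.7%. Those 2, Map7 (log2 fold change −0.47) and Map7d1 (−0.51), had an unadjusted edgeR p under 0.05. Of 18 listed, 16 were tested and their median log2 fold change was 0.15, against 0.02 for all tested genes. Over all tested genes 2.79% were called higher and 4.58% lower. Map1a, the paralogue of Map1b, rose to 33.1 and 39.1 CPM in the mutant libraries, against 14.01 and 17.8 CPM in the wild-type libraries (log2 fold change 1.18, SE 0.21, edgeR FDR 0.0221). Stmn1, the microtubule-destabilising stathmin, rose too (log2 fold change 1.36, edgeR FDR 0.0267), as did Clip2, a protein of growing microtubule ends (1.21, edgeR FDR 0.0270). Stmn1 is uncertain, since a processed copy 97.6% identical to it, Gm11223, is annotated and had 97 and 58 counts in the mutant libraries, against 30 and 24 counts in the wild-type libraries. Dcx, a marker of young neurons, had no count in any library. Without mutant replicate 2 the list had 1 higher call, as Map1a (FDR 0.121) and Clip2 (FDR 0.127) were lost, and without wild type replicate 2 it had 7.

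Tubulin genes were called in both directions. Tubb3, the beta-tubulin known from neurons, had 2.43 and 4.12 CPM in the mutant libraries, against 0.743 and 0.358 CPM in the wild-type libraries. These low values rest on 61, 56, 13 and 7 counts in that order. Tubb3 rose (log2 fold change 2.55, SE 0.50, edgeR FDR 0.0277). The alpha-tubulin genes Tuba8 and Tuba4a fell by 1.45 (edgeR FDR 0.0205) and 1.44 (edgeR FDR 0.0401) on the log2 scale. Tuba4a had 249 and 304 CPM in the mutant libraries, against 988 and 515 CPM in the wild-type libraries, where the replicates themselves lay far apart. The 10 other tubulin genes did not pass, and the median over 13 was 0.31, against 0.02 for all tested genes. Over all tested genes 2.79% were called higher and 4.58% lower. Tubulin genes resemble each other closely and have annotated pseudogenes, so that the counts of single members are uncertain. Without either mutant library neither Tuba8 nor Tuba4a was called, Tuba4a was lost also with library totals (FDR 0.0562), Tubb3 was lost without mutant replicate 2 (FDR 0.0952), and higher calls numbered 5 without wild type replicate 1.

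**Figure D4:**
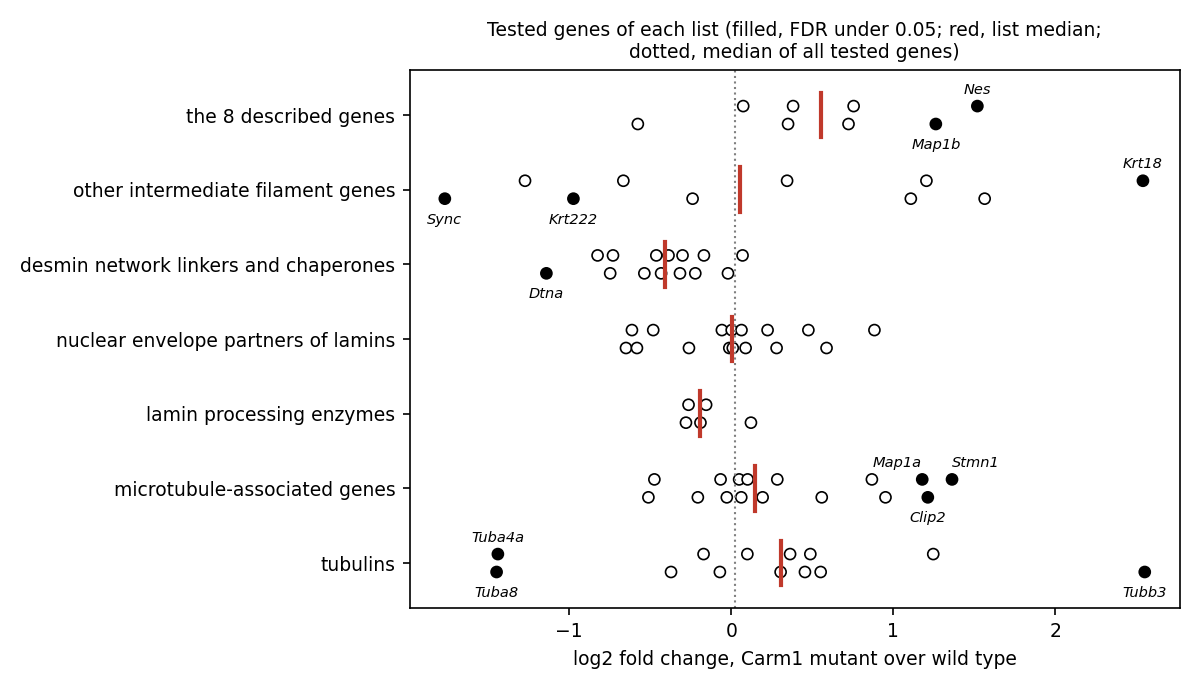
Log2 fold change, mutant over wild type, of each tested gene in the 8 described genes and 6 companion lists; filled circles had an FDR under 0.05, red bars are list medians and the dotted line is the median of all tested genes (0.02). Called genes lie on both sides for the other intermediate filament genes and the tubulins, and the desmin network has its median at −0.41.

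Markers of the cell types that use these filaments differed between the groups as well. In bulk RNA, fewer cells of a type and less RNA per cell cannot be told apart. The 8 heart muscle cell markers summed to 40408 and 43138 CPM in the mutant libraries, against 77997 and 68867 CPM in the wild-type libraries. All 8 had negative log2 fold changes, with a median of −0.77. In 7 of the 8 both mutant libraries lay below both wild-type libraries, beside 28.7% of all tested genes. An unadjusted edgeR p under 0.05 was reached by 7, beside 27.8% of all tested genes. Over all tested genes 2.79% were called higher and 4.58% lower. Only 1 of the 8 was called lower, Pln, the phospholamban that restrains the calcium pump (log2 fold change −0.90, edgeR FDR 0.0443). The Pln call was lost without either mutant library and with library totals (FDR 0.101). It was also lost with upper-quartile factors (FDR 0.0572), in the robust fit (FDR 0.0527) and with the replicate number as a block (FDR 0.112). The 8 fibroblast markers summed to 5754 and 6106 CPM in the mutant libraries, against 3375 and 3903 CPM in the wild-type libraries. In 7 of these both mutant libraries lay above both wild-type libraries, beside 30.3% of all tested genes, and 5 had an unadjusted edgeR p under 0.05. Postn, the matricellular protein periostin, rose (1.38, edgeR FDR 0.0189), but was not called without mutant replicate 2 (FDR 0.173). The 8 endothelial markers summed to 1812 and 1583 CPM in the mutant libraries, against 1054 and 1347 CPM in the wild-type libraries. In 6 of these both mutant libraries lay above both wild-type libraries, and 3 had an unadjusted edgeR p under 0.05. Cldn5, the tight junction claudin of endothelium, rose (1.12, edgeR FDR 0.0257), a call lost without either mutant library. The direction of the sums was thus that of Des for heart muscle cells and that of Vim and Nes for fibroblasts and endothelium, and their part in those differences was not tested.

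Markers of dividing cells had the widest gap. The 4 genes Mki67, Top2a, Cdk1 and Ccnb1 summed to 83.4 and 85.7 CPM in the mutant libraries, against 16.3 and 26.6 CPM in the wild-type libraries. All 4 were called higher by edgeR, beside 2.79% of all tested genes. Top2a, which untangles DNA before cell division, had a log2 fold change of 1.85 (edgeR FDR 0.0106) and Ccnb1, cyclin B1, one of 2.36 (edgeR FDR 0.0120). They rose beside Nes and Map1b, and were higher in the same libraries as the uncalled Lmnb1; their part in those differences was not tested. Of 8 markers of nerve and Schwann cells, 5 were tested and none was called by edgeR, with 2 at an unadjusted p under 0.05, beside 27.8% of all tested genes; the list summed to 19.9 and 18.0 CPM in the mutant libraries, against 12.8 and 12.6 CPM in the wild-type libraries. All 5 tested genes of that list had positive log2 fold changes, with a median of 0.54. In 4 of the 5 both mutant libraries lay above both wild-type libraries, beside 30.3% of all tested genes. Among the untested genes of that list, Th and Snap25, which mark neurons, had at most 1 count in any library. Smooth muscle markers summed to 1627 and 1758 CPM in the mutant libraries, against 1492 and 1596 CPM in the wild-type libraries. Most of that was Acta2, with 1563 and 1692 CPM, against 1430 and 1517 CPM. Only 1 of the 4 had a positive log2 fold change (median −0.07), and Cnn1 had −0.65 (edgeR FDR 0.170). Pericyte markers summed to 825 and 822 CPM in the mutant libraries, against 614 and 807 CPM in the wild-type libraries. Of these 4, 2 had positive log2 fold changes (median −0.02). None of either list was called. Macrophage and erythroid markers overlapped between the groups. Wt1, an epicardial marker, rose (0.99, edgeR FDR 0.0345, lost without either mutant library), while the other 2 epicardial markers had negative log2 fold changes and were not called.

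**Figure D5:**
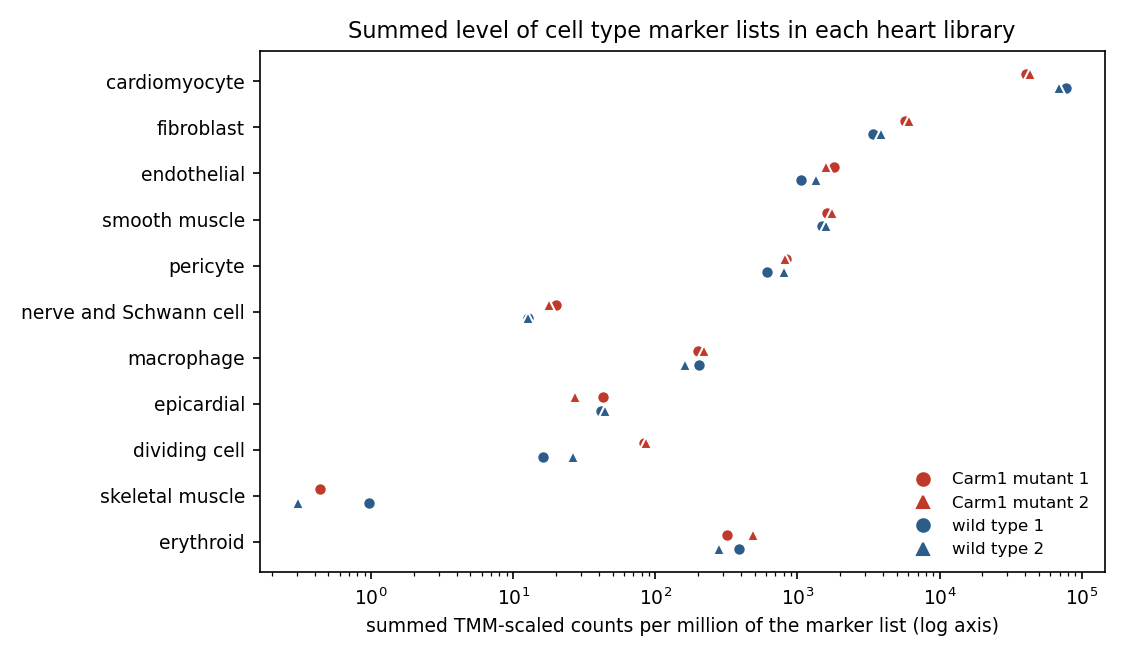
Summed TMM-scaled CPM of 11 lists of cell type markers in each library (log axis), with mutant libraries in red above wild-type libraries in blue; mutant replicate 2 had 0 for skeletal muscle and is not drawn there. Dividing cell markers lie at 83.4 and 85.7 in the mutant libraries, against 16.3 and 26.6 in the wild-type libraries. Heart muscle cell markers lie lower in both mutant libraries.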

How the data were processed

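Whole-heart RNA was sequenced in 4 libraries, prepared by BGI per the labels. FastQC and HISAT2 with the mm10 build are named in the submitters' processing notes; versions, counting program, annotation and strand setting are not given in the sources used. The authors deposited unnormalised counts, 1 value per gene and library, and no library repeated another (chi-square per degree of freedom 11.5 for the mutant pair and 51.1 for the wild-type pair, genes with 10 or more counts in the pair).

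Of 54752 identifiers 54723 were named in GENCODE M21 (GRCm38). Genes passing filterByExpr (15283) were normalised with TMM factors and entered the quasi-likelihood test of edgeR 4.0.16 (R 4.3.3, glmQLFit and glmQLFTest, Benjamini-Hochberg FDR 0.05, genotype as the only term, all 4 libraries). The standard error is the absolute log2 fold change divided by the square root of F. limma 3.58.1 and DESeq2 1.42.0 served as alternatives, and the fit was tested on simulated data. For the 4 library totals, 3 counts equal 0.135 to 0.257 CPM. Length and GC offsets came from a loess fit (span 0.4) per library. Pseudogene copies were sought at 90% identity over at least 50% of the copy. The genes, the lists, the alternatives and the naming rule (all 8 genes, Carm1, up to 4 called genes or the 2 most abundant per list, up to 2 called per marker list) were chosen with earlier results of these data known. No list was given a test of its own.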

Additional observations from a re-analysis of the deposited data

How the results depend on the processing

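Nes and Map1b were called under all 15 alternatives, and Synm, Lmna and Lmnb2 under none of them. Scaling by library totals alone moved the median log2 fold change of all tested genes to 0.41, against 0.02, and the split of all calls to 1189 higher and 206 lower, against 426 and 700. The number of calls over all genes was 410, 378, 2037 and 5451 without mutant replicate 1, mutant replicate 2, wild type replicate 1 and wild type replicate 2; the pair left complete sets the spread, and the lone library is assumed to vary like it. It was 2630 with no filter, 1705 by DESeq2 and 2802 with the length and GC offsets. Depth limits the scarce genes most, Synm with 68 counts in the smaller mutant library among them.

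Vim passed the threshold with library totals (log2 fold change 1.15), no filter (0.74), the DESeq2 Wald test (0.74) and the length and GC offsets (0.74), and ran from 0.67 to 0.82 with a library left out. Lmnb1 passed with library totals (1.11) and the offsets (0.66), and ran from 0.64 to 0.79 with a library left out. Des ran from −0.78 to −0.38 and Lmna from −0.079 to 0.21 with a library left out, and Lmna had −0.026 with the offsets. The cause of these moves was not tested.

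Members called higher numbered 4 with library totals and 4 with the offsets, and from 2 to 4 with a library left out; those called lower then numbered 0 to 1. For the other intermediate filament genes there were 2 higher calls with no filter and 1 lower call with library totals, and with a library left out 1 to 2 higher and 1 to 4 lower. The desmin network had 0 lower calls with library totals, 4 with no filter, 3 by DESeq2 and 7 with the offsets, and 0 to 6 with a library left out. Nuclear envelope partners had 1 higher call with library totals and 1 with the offsets. They had 1 lower call with no filter, 1 by DESeq2 and 4 with the offsets. With a library left out they had 0 to 3 higher and 0 to 3 lower. Lamin processing enzymes had 0 to 1 lower with a library left out. Microtubule-associated genes had 5 higher calls with library totals and 2 lower with the offsets, and 1 to 7 higher and 0 to 1 lower with a library left out. Tubulins had 4 higher calls and 1 lower with library totals, 2 higher with no filter, by DESeq2 and with the offsets, and 0 to 5 higher and 0 to 4 lower with a library left out.

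Shares differed by 2.64 (B-type lamins), 16.7 (Vim) and 4.65 (Nes) percentage points on raw counts, and by 17.0 (Vim) and 2.39 (Nes) with the longest transcript as the length; none changed sign. Among genes that were not called, Banf1 changed sign with DESeq2 size factors (−0.017), no filter (−0.020), the DESeq2 Wald test (−0.017) and the offsets (−0.011), and ran from −0.39 to 0.49 with a library left out. Fnta changed sign with library totals (0.15) and ran from −0.57 to 0.065 with a library left out, and Icmt changed sign with library totals (0.23).

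The replicate numbers were not treated as pairs, since with 2 pairs nothing in the labels ties equal numbers together; deviations of equally numbered libraries correlated at −0.22 across genes. With the number as a replicate block Nes (1.55) and Map1b (1.31) kept their calls, Des (−0.57), Vim (0.76), Lmnb1 (0.73), Lmnb2 (0.35), Synm (0.37) and Lmna (0.078) remained uncalled, tubulins had 2 higher calls and 1222 genes were called in all. A block with crossed numbers, added after the data were seen, called 4 members higher, 2 other intermediate filament genes higher, 4 desmin network genes lower, 2 nuclear envelope genes higher and 3 lower, 6 microtubule-associated genes higher, 3 tubulins higher and 4176 genes in all.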
